A study of Homo sapiens with 4 samples.

Results

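The 9 genes described here take up, store, export and sense iron in human osteoblasts: TFRC, SLC11A2 and SLC39A14 (uptake), FTH1 and FTL (storage), SLC40A1 (export), IREB2 and ACO1 (sensing) and HMOX1 (release of iron from haem). They were taken by symbol from the deposited mRNA table, in which all 9 were found among 19610 symbols, with 54 of its 79798 transcripts. All 9 reached 1 FPKM (fragments per kilobase of transcript, scaled to library size) in any library, as did 12859 symbols in all. The cells were hFOB1.19, a single immortalised human fetal osteoblast line that carries a temperature-sensitive large T antigen, so it grows at the lower culture temperature and stops and differentiates at the higher one. RNA was sequenced on day 0 (labelled control, lower temperature) and on days 3, 6 and 9 of differentiation (labelled undergoing mineralization, higher temperature), with 1 library per day. The methods name no altered gene and no added agent for these cultures. Time and temperature changed together between day 0 and the rest, so that their parts cannot be told apart.

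Cells take up iron bound to transferrin through the transferrin receptor, and other iron through divalent metal transporters. Iron that is not used at once is held in ferritin, a hollow shell of heavy and light chains, and leaves the cell only through ferroportin. When cytosolic iron is low, the iron regulatory proteins bind a hairpin in the untranslated regions of these mRNAs, the iron-responsive element, which blocks translation of ferritin and stabilises the mRNA of the transferrin receptor. Bone cells are sensitive to iron, and an iron surplus is known to hamper mineralization in culture.

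A short stretch of FTL is shown because it holds the element on which the sensing genes act. The RefSeq promoter table (GRCh38.p14) reaches to base 50 of the transcript and has entries for 6 of the 9 genes. The stretch is bases 21 to 50 of the FTL transcript, chr19:48965329-48965358 on the plus strand, in the 5′ untranslated region. The capitals mark the loop of the element, CAGTGN, at base 39, and the unpaired C at base 33.
FTL: gtctgtctcttgCttcaaCAGTGTttggac
Read in the sense of the transcript, these letters (C, 5 bases, then CAGTGN) were found within the first 50 bases of 1.67% of 35116 entries. FTL was the only 1 of the 6 genes with a match in this window. The match is one of letters, and no match says only that these letters are not in this window.
The second sequence is that of miR-1301-3p, the microRNA the study worked on, because TFRC is on the study's list of its predicted targets. The mature sequence lies at chr2:25328651-25328674 on the minus strand in GRCh38.p14, by the RefSeq table. The capitals mark the seed, bases 2 to 8.
hsa-miR-1301-3p: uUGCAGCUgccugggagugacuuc
The level of this microRNA was not measured in the files used here. By qPCR, the study reported that it fell during mineralization. Of the predicted targets, the study followed PADI4, by its account the only one shared with its mRNA data. FDXR and HEBP1, described below and higher on day 9, are also on that list. So are SRXN1 and FDX1L, which were lower on day 9. SRXN1 had 15.4 and 13.5 FPKM (defined above) on days 0 and 9, and FDX1L had 32.6 and 27.5. The part of the microRNA in any of these values was not tested.

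Labels and methods state that RNase R, which digests linear RNA, was used on the mRNA libraries and not on those of circRNAs, the reverse of common use. If that is so, each level here is that of linear RNA left after digestion, and whether it is so was not tested. With 1 library per day, no comparison has a replicate check, and no test was made. The limit for a 2-fold difference was a log2 ratio of (FPKM + 1) of at least 1 or at most -1, and the added 1 makes changes of weakly expressed genes look smaller. The 12859 genes had medians of -0.08, -0.08 and -0.09 for days 3, 6 and 9 against day 0. Of the genes past the limit, 60.6%, 58.4% and 59.6% were higher on days 3, 6 and 9. With FPKM rescaled to the same sum, the shares were 77.7%, 74.4% and 68.2%, the median on day 3 was 0.10, and between days 6 and 9 the share was 56.2% in place of 70.0%. Of the 10 osteoblast markers listed, COL1A1 had at least 777 FPKM and SPARC at least 1113 in every library, while SP7, BGLAP, IBSP and DMP1 stayed under 1 FPKM in all 4. Of the 6 markers that reached it, RUNX2, ALPL, COL1A2 and SPP1 were 2-fold higher on day 9, beside 9.6% of all genes. ALPL went from 0.294 to 4.18 FPKM, the others had log2 ratios of 1.20, 2.15 and 2.24, and the median of the 6 was 1.60. Their part in the iron gene values was not tested. Of the 9 blood cell markers, 7 stayed under 1 FPKM, among them PTPRC with at most 0.44. CD14 and CD68 are the exceptions and are given beside FTH1. Of the hepatocyte markers, SERPINA1 went from 0.96 to 24.0 FPKM, while ALB had at most 0.41. Of 5 endothelial and 5 epithelial markers, 2 and 1 reached 1 FPKM and none was 2-fold changed on any day.

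Most of these genes were higher late in differentiation, and none was 2-fold lower. On day 3, FTH1 and SLC40A1 were 2-fold higher than on day 0, which is 2 of 9 (22.2%) beside 8.13% of all genes. On day 6, FTL joined them, making 3 of 9 (33.3%) beside 9.01%. On day 9, TFRC, SLC39A14 and HMOX1 did as well, so that 6 of 9 (66.7%) were past the limit, beside 9.6% of all genes. No member was 2-fold lower on any day, where 5.3%, 6.42% and 6.52% of all genes were. The median log2 ratio of the 9 was 0.00, 0.58 and 1.05 on the same days, against the medians near -0.08 over all genes. TFRC and SLC39A14 lay just inside the limit on day 9 (log2 ratio 1.05 and 1.03), and SLC11A2 (0.66) was the nearest outside it. The 3 comparisons share the day 0 library.

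**Figure D1:**
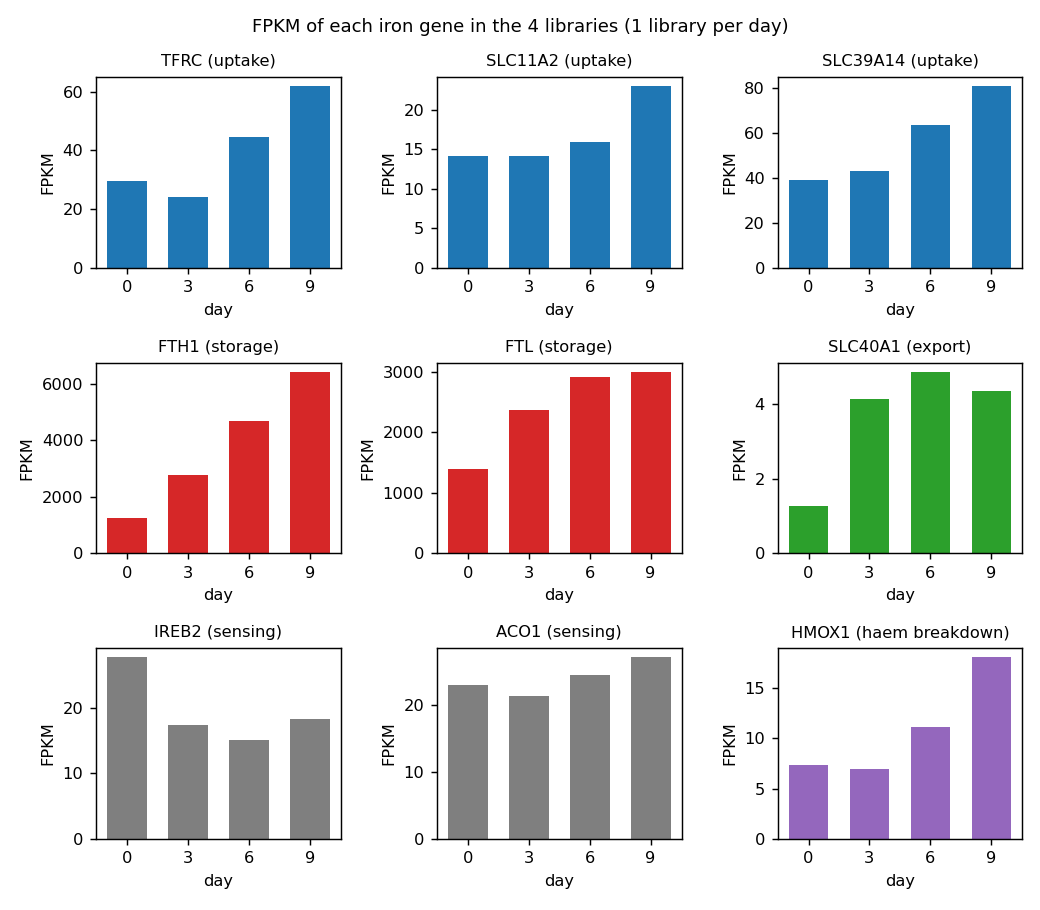
FPKM (vertical axis, from 0, a scale of its own in each panel) of the 9 iron genes on days 0, 3, 6 and 9, 1 bar per library, coloured by role. FTH1 was higher in each later library, TFRC and HMOX1 were higher from day 6 on, and IREB2 was highest on day 0.

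The ferritin genes were by far the most abundant of the 9. FTH1, the heavy chain, which oxidises iron as it enters the shell, is ENSG00000167996 (chromosome 11, 61964285 to 61967634, GRCh38.p14). The FTH1 level over days 0, 3, 6 and 9 was 1263, 2783, 4691 and 6418 FPKM. Each library was above the one before, and the day 9 level was 5.08 times that of day 0 (log2 ratio 2.34). Among the 12859 genes, FTH1 had level ranks of 62, 12, 4 and 2 in the 4 libraries. Its log2 ratio on day 9 ranked 182nd among all genes.

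FTL, the light chain, which helps form the mineral core, is ENSG00000087086 (chromosome 19, 48965309 to 48966879). The FTL level over days 0, 3, 6 and 9 was 1395, 2371, 2909 and 2997 FPKM. It was above FTH1 on day 0 and below it in the other 3 libraries. Its log2 ratios against day 0 were 0.76, 1.06 and 1.10, so that most of its difference was present on day 3 and days 6 and 9 were within 1.03-fold of each other.

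The balance of the ferritin mRNAs shifted toward that of the heavy chain, while the chains as proteins were not measured in these data. Within each library, a ratio that does not depend on the scaling between libraries, FTH1 to FTL was 0.905, 1.17, 1.61 and 2.14 over days 0, 3, 6 and 9. The heavy chain mRNA thus made up 47.5% of ferritin FPKM on day 0 and 68.2% on day 9. The mRNAs of both chains together held 0.430%, 0.958%, 1.39% and 1.65% of all mRNA FPKM over the same days. Both genes have many processed pseudogenes of near-identical sequence, and how reads shared with them were counted is not given in the sources used here, so that these levels are uncertain.

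FTH1 is listed with 8 transcripts, of which 7 had a mean of at least 1 FPKM, and all 7 were higher on day 9 than on day 0. Their day 9 levels were 2.30 to 10.6 times those of day 0. The transcripts ENST00000620041 and ENST00000530019 carried most of the sum. The first went from 656 to 3297 FPKM and held 51.9% of the gene on day 0 and 51.4% on day 9. The second held 41.4% and 41.3%, so that the shares of the main transcripts stayed close while the gene as a whole changed. FTL was carried by ENST00000331825 alone, its other transcript being listed at 0 in every library.

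The symbol nearest to FTH1 in its course over the 4 libraries was CD68, a lysosomal membrane protein best known from macrophages, with 16.2, 37.5, 65.1 and 90.6 FPKM from day 0 to day 9. The root mean square difference of their centred log2 values was 0.03 over 4 libraries, among 10452 symbols with at least 5 FPKM, of which 4 lay within 0.1. The next was CD83, a surface protein of activated immune cells, with 2.32, 6.28, 11.6 and 14.8 FPKM. The summed FPKM of the 9 blood cell markers was 17.6, 38.6, 66.6 and 92.2 from day 0 to day 9, nearly all of it from CD68. PTPRC, which marks all white blood cells, had 0.07, 0.29, 0.04 and 0.44 FPKM, CD14 had 1.07, 0.40, 0.63 and 0.43, and CD3E was listed at 0 in all 4. The part of such cells in the FTH1 values was not tested. For FTL, the nearest symbols were CD47 (0.01) and APBB2 (0.02), and 152 symbols lay within 0.1, so that its course was a common one.

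SLC40A1, ferroportin, the only known exporter of iron from cells, is ENSG00000138449 (chromosome 2, 189560590 to 189580786). The SLC40A1 level over days 0, 3, 6 and 9 was 1.26, 4.16, 4.88 and 4.36 FPKM. It was the least abundant of the 9 genes in every library, and its 3 later values lay close together above day 0. Against day 0, its log2 ratios were 1.19, 1.38 and 1.25, and without the 1 that was added, the day 9 level was 3.46 times that of day 0. One transcript, ENST00000261024, carried all of it, and the other 4 were listed at 0 throughout. The symbols of most similar course were DKK3, a secreted WNT antagonist (0.01 root mean square log2 difference), and GPR137C, and 85 symbols lay within 0.1. These distances were taken with 1 added, which shrinks the differences of a gene at so low a level. With 0.1 added, the log2 ratios of SLC40A1 were 1.65, 1.87 and 1.71. How common its early and steady course was is therefore uncertain.

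TFRC, the transferrin receptor and main gate for iron in dividing cells, is ENSG00000072274 (chromosome 3, 196049284 to 196082090). The TFRC level over days 0, 3, 6 and 9 was 29.4, 24.1, 44.6 and 61.9 FPKM. Day 3 was the lowest library and day 9 the highest, with a log2 ratio to day 0 of -0.28, 0.58 and 1.05. Transcript ENST00000360110 carried between 95.1% and 97.6% of the gene in each library. Of the 10 proliferation genes listed, 6 were 2-fold lower on day 9, beside 6.52% of all genes, and the median log2 ratio of the 10 was -1.16. PCNA was the only 1 of the 10 above 0 on that day, with a log2 ratio of 0.90. MKI67 had 116 FPKM on day 0 and 52.3, 57.8 and 53.6 later. Only 4 symbols had a course within 0.1 of that of TFRC. The nearest were PVR, the poliovirus receptor, with 43.2, 41.4, 71.2 and 99.2 FPKM, and QPCT, an enzyme that modifies peptide ends, with 10.2, 9.03, 14.5 and 21.7.

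SLC39A14, a zinc transporter family member (ZIP14) that also carries iron not bound to transferrin, is ENSG00000104635 (chromosome 8, 22367278 to 22434129). The SLC39A14 level over days 0, 3, 6 and 9 was 39.0, 43.1, 63.3 and 80.7 FPKM. Days 0 and 3 were close, and days 6 and 9 were both above them, with a log2 ratio of 0.14, 0.68 and 1.03. Of its 11 transcripts, 7 had a mean of at least 1 FPKM and 6 of these were higher on day 9 than on day 0. ENST00000381237 went from 16.1 to 36.9 FPKM and ENST00000359741 from 13.2 to 21.7, so that the first held 41.3% of the gene on day 0 and 45.8% on day 9, and the second 33.8% and 26.9%. The nearest courses were those of WNT5A, a WNT ligand (0.02), and HDAC9, a histone deacetylase (0.04), and 25 symbols lay within 0.1.

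SLC11A2, the divalent metal transporter DMT1, which moves iron out of endosomes, is ENSG00000110911 (chromosome 12, 50952263 to 51028886). SLC11A2 had 14.2 FPKM on days 0 and 3, 16.0 on day 6 and 23.0 on day 9. The first 3 libraries were close and only day 9 stood above them, with a log2 ratio of 0.66, short of the 2-fold limit. Of its 15 transcripts, 3 had a mean of at least 1 FPKM, and their day 9 levels were 1.61 to 1.75 times those of day 0. SLC39A14 was 2.75 times as abundant as SLC11A2 on day 0 and 3.50 times on day 9.

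**Figure D2:**
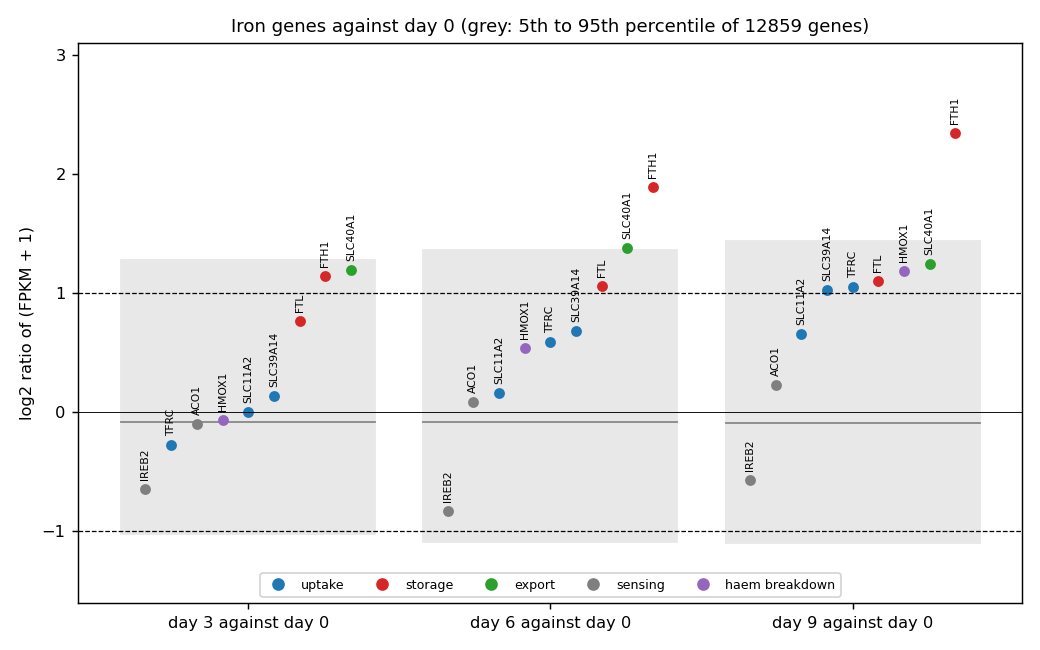
Log2 ratio of (FPKM + 1) to day 0 (vertical axis) of the 9 iron genes on days 3, 6 and 9, 1 point per gene, coloured by role; the grey boxes span the 5th to 95th percentile of 12859 genes, the grey line is their median and the dashed lines mark 2-fold. On day 9, 6 genes lie above the upper dashed line and FTH1, at 2.34, lies above the grey box.

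HMOX1, haem oxygenase 1, the stress-inducible enzyme that opens haem and frees its iron, is ENSG00000100292 (chromosome 22, 35381096 to 35394207). The HMOX1 level over days 0, 3, 6 and 9 was 7.39, 6.999, 11.2 and 18.1 FPKM. Days 0 and 3 were alike in level and each later library was above the one before, with a log2 ratio of -0.07, 0.54 and 1.19. HMOX2, the constitutive enzyme, had 67.5 FPKM on day 0 and 42.6 on day 9. Within a library, HMOX1 was 0.110, 0.169, 0.296 and 0.425 of HMOX2 over days 0, 3, 6 and 9. As with TFRC, the nearest courses were QPCT (0.06) and PVR (0.07), and 3 symbols lay within 0.1. HMOX1 is known to respond to heat and oxidants, so values of both responses stand beside it. Of 10 heat shock genes, 0 were 2-fold higher on days 3, 6 and 9, beside 8.13%, 9.01% and 9.6% of all genes. On day 3, 1 was 2-fold lower (HSPA8), beside 5.3%. The median log2 ratio of the 10 on day 9 was 0.18. NQO1, a standard target of the oxidant sensor NRF2, had 76.7, 64.3, 72.2 and 69.9 FPKM from day 0 to day 9. It is 1 of 17 listed NRF2 targets measured at 1 FPKM or more. On day 9, 9 of the 17 had a log2 ratio above 0, beside 44.8% of all genes, and their median was 0.05. SQSTM1, a target listed among the regulators, had 1.10. The part of either response in the HMOX1 values was not tested.

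IREB2 encodes iron regulatory protein 2, which is degraded when iron is plentiful, and is ENSG00000136381 (chromosome 15, 78437431 to 78501453). The IREB2 level over days 0, 3, 6 and 9 was 27.7, 17.4, 15.2 and 18.3 FPKM. It was the only 1 of the 9 with its highest level on day 0, and its log2 ratio of -0.64, -0.83 and -0.57 stayed within the limit. On day 9, the main transcript alone had a log2 ratio of -0.88, while on days 3 and 6 it had -0.58 and -0.79, slightly smaller than for the gene. ENST00000258886 went from 24.9 to 13.1 FPKM, while ENST00000559091 had no FPKM on days 3 and 6, being listed at 0, and 3.96 on day 9.

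ACO1 encodes iron regulatory protein 1, which works as an aconitase when it holds an iron-sulphur cluster, and is ENSG00000122729 (chromosome 9, 32384643 to 32454769). The ACO1 level over days 0, 3, 6 and 9 was 23.0, 21.4, 24.6 and 27.2 FPKM. These are the smallest differences among the 9 genes on day 9, with a log2 ratio of 0.23. IREB2 was thus above ACO1 on day 0 (1.20 times) and below it later, at 0.811, 0.617 and 0.674 times. FBXL5, the ubiquitin ligase subunit that targets iron regulatory protein 2, had 74.0, 102, 108 and 98.2 FPKM from day 0 to day 9.

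In order of level per length on day 0, the 9 genes were FTL, FTH1, SLC39A14, TFRC, IREB2, ACO1, SLC11A2, HMOX1 and SLC40A1. On day 9, the order was FTH1, FTL, SLC39A14, TFRC, ACO1, SLC11A2, IREB2, HMOX1 and SLC40A1. No spread over samples can be given for neighbours in these orders. IREB2 and HMOX1 on day 9, at 18.3 and 18.1 FPKM, were closest. TFRC was 0.0233 of FTH1 on day 0 and 0.00866 on day 3, and stayed at 0.00952 and 0.00965 on days 6 and 9. TFRC to SLC40A1, the receptor against the exporter, was 23.4, 5.79, 9.15 and 14.2 over days 0, 3, 6 and 9.

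**Figure D3:**
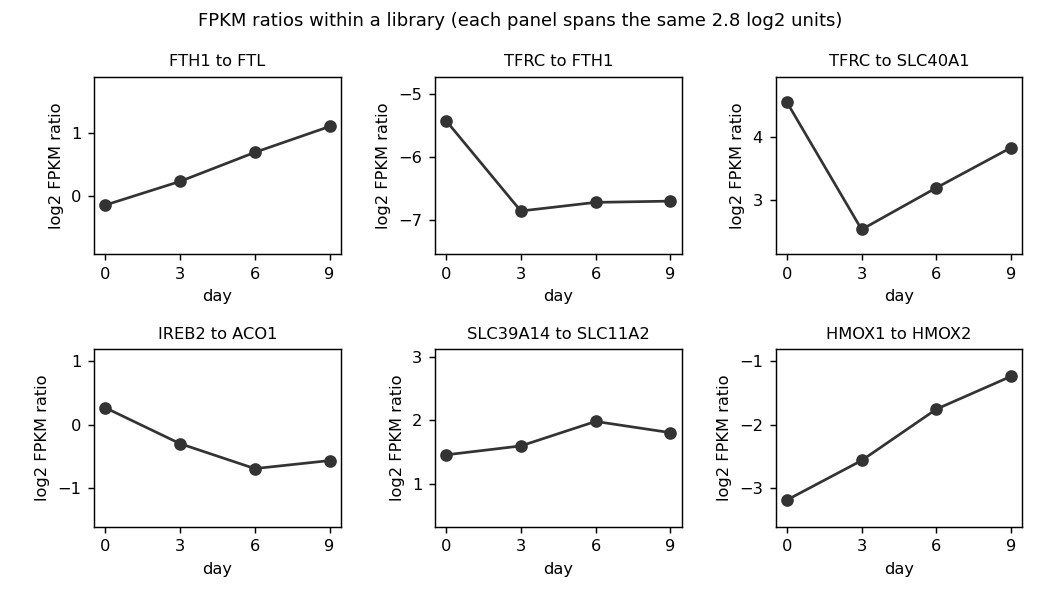
Log2 of the FPKM ratio between 2 genes of the same library (vertical axis) on days 0, 3, 6 and 9, 1 point per library, for 6 pairs. FTH1 to FTL and HMOX1 to HMOX2 were higher in each later library, while TFRC to FTH1 was lowest on day 3 (-6.85) and TFRC to SLC40A1 was lowest on the same day (2.53).

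Days 3, 6 and 9 share the higher temperature, and each of the later steps, day 3 to day 6 and day 6 to day 9, held far fewer genes past the limit than the comparisons with day 0. Day 9 was not compared with day 3. Between days 3 and 6, no member was past the 2-fold limit, as were only 0.607% (higher) and 0.443% (lower) of all genes. Between days 6 and 9, again no member was, beside 0.381% and 0.163%. Within these narrow ranges some of the iron genes lay high and others did not. From day 3 to day 6, the log2 ratio of TFRC was 0.86, the 112th highest of 12859, that of FTH1 was 0.75 (164th), that of HMOX1 was 0.61 (270th) and that of SLC39A14 was 0.54 (348th). These 4 of 9 were above the 95th percentile of all genes (0.41, and 0.35 in the next step), a limit that by its making holds 5% of genes and was chosen after the values were seen. From day 6 to day 9, 4 of 9 were above it, again beside 5% of genes: HMOX1 had 0.65 (137th), SLC11A2 0.50 (287th), TFRC 0.46 (353rd) and FTH1 0.45 (373rd). TFRC, FTH1 and HMOX1 were in both groups, although the day 6 library enters both comparisons. IREB2 had -0.19 from day 3 to day 6 and 0.26 from day 6 to day 9, and ACO1 had 0.19 and 0.14. FTL had 0.04 and SLC40A1 -0.13 from day 6 to day 9, having reached most of their difference by day 3.

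**Figure D4:**
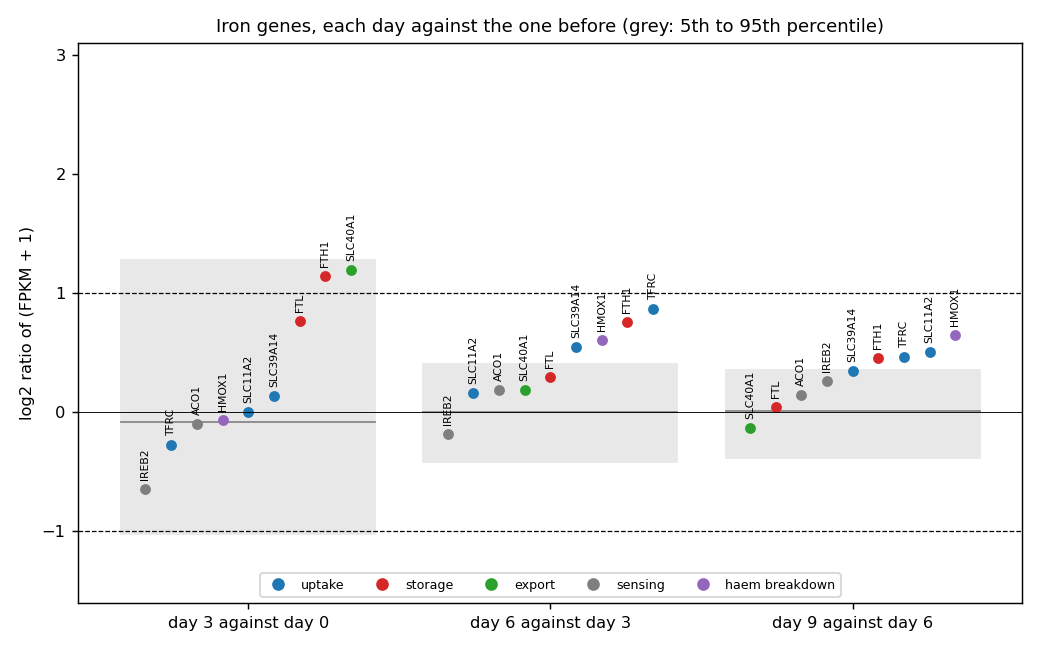
Log2 ratio of (FPKM + 1) of each day against the one sequenced before it (vertical axis) for the 9 iron genes, 1 point per gene, coloured by role; grey boxes span the 5th to 95th percentile of 12859 genes and dashed lines mark 2-fold. SLC40A1, FTH1 and FTL lead from day 0 to day 3, and TFRC, FTH1 and HMOX1 lie above the grey box in both later steps.

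Some other genes of iron uptake were 2-fold higher after day 0 and others were not. Of 16 listed, 10 were measured at 1 FPKM or more, 4 were 2-fold higher and 1 was 2-fold lower on day 9, beside 9.6% and 6.52% of all genes, and their median log2 ratio was 0.88. STEAP3, the ferric reductase of endosomes, and RAB11FIP3, of the recycling endosome, had log2 ratios of -0.40 and -0.23 on day 9. CYBRD1, a ferric reductase of the cell surface, had 23.3 FPKM on day 0 and 70.6, 79.1 and 80.1 later. LRP1, a large receptor that takes up haem bound to hemopexin among many ligands, had 47.3 FPKM on day 0 and 158, 153 and 160 later. SLC22A17, the receptor of the iron-binding lipocalin 2, had 3.39 FPKM on day 0 and 20.2, 17.9 and 16.5 later. STEAP1, of a family of metal reductases, had 0.17 FPKM on day 0 and 2.73 on day 9. HFE, which binds the transferrin receptor, was the 1 that was lower, with 5.67, 3.26, 2.42 and 1.39 FPKM from day 0 to day 9. SLC39A8, the closest relative of SLC39A14, had 7.38 FPKM on day 0 and 15.7 on day 9, just short of the limit.

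Of the storage genes beside ferritin, 7 of 8 were measured at 1 FPKM or more, with a median of -0.03 on day 9. None was past the limit on any day, where on day 9 9.6% of all genes were higher and 6.52% lower. NCOA4, the receptor that brings ferritin to the lysosome, had 52.1, 50.5, 44.9 and 50.9 FPKM. PCBP1 and PCBP2, which deliver iron to ferritin, had 150 and 462 FPKM on day 0 and 131 and 298 on day 9. PCBP3 had the largest ratio of this list on day 9 (0.91), at no more than 1.49 FPKM. In the list of export and the hepcidin axis, 3 of 11 were measured at 1 FPKM or more. Of these, 1 was 2-fold higher on each of days 3, 6 and 9, beside 8.13%, 9.01% and 9.6% of all genes. That gene was erythroferrone (listed as FAM132B), which is known to lower hepcidin, with 5.48, 14.5, 15.5 and 15.7 FPKM. HAMP, hepcidin itself, was listed at 0 in all 4 libraries. The ferroxidase CP had 0.51 FPKM on day 0 and 1.39 on day 9.

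Among 8 sensing genes, EPAS1 was the 1 that was 2-fold higher on days 3, 6 and 9, beside 8.13%, 9.01% and 9.6% of all genes. EPAS1 encodes a hypoxia-inducible factor whose mRNA is known to carry an iron-responsive element, and had 28.8, 80.6, 103 and 119 FPKM. The median of this list on day 9 was 0.13. The list of other mRNAs known to carry the element had 5 of 6 measured at 1 FPKM or more, a median of 0.15 on day 9 and EPAS1 as its only gene past the limit.

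Of 10 haem synthesis genes listed, 9 were measured at 1 FPKM or more. On days 3, 6 and 9, 1, 2 and 1 were 2-fold lower, beside 5.3%, 6.42% and 6.52% of all genes. None was 2-fold higher, beside 8.13%, 9.01% and 9.6%. With 9 genes, these counts say nothing particular of the list. UROS, the enzyme that closes the ring of the haem precursor, had 30.3 FPKM on day 0 and a log2 ratio of -1.27 on day 9. FECH, which inserts iron into haem, had 32.2, 10.6, 13.1 and 17.1 FPKM. ALAS1, the first and limiting enzyme, had 35.5 FPKM on day 0 and 23.9 on day 9. The median of the list was -0.17, -0.40 and -0.42 on days 3, 6 and 9.

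Of 14 genes of haem breakdown and transport beside HMOX1, 13 were measured at 1 FPKM or more, with a median of 0.04 on day 9. On that day, 2 were 2-fold higher, beside 9.6% of all genes. They were SLC48A1, a haem transporter of lysosomes, with 8.01 and 18.6 FPKM on days 0 and 9, and HEBP1, a haem-binding protein, with 20.4 and 43.7. Of 21 genes of mitochondrial iron and iron-sulphur clusters, 2 were 2-fold higher on day 9, beside 9.6% of all genes. Their median was -0.27. FDXR, ferredoxin reductase and a known p53 target, had 8.65 FPKM on day 0 and 71.5 on day 9. SLC25A37, mitoferrin 1, which carries iron into mitochondria, had 11.8, 21.0, 31.0 and 38.2 FPKM.

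FTH1, FTL and HMOX1 are known targets of NRF2, a factor that answers oxidants. Of 20 other targets listed, 17 were measured at 1 FPKM or more, with medians of -0.25, -0.09 and 0.05 on days 3, 6 and 9. On these days, 1, 0 and 1 were 2-fold higher, beside 8.13%, 9.01% and 9.6% of all genes. The counts 2-fold lower were 2, 1 and 0, beside 5.3%, 6.42% and 6.52%. The 1 that was higher on day 9 was AKR1C1, at no more than 1.33 FPKM. OSGIN1, an oxidant-induced growth inhibitor, and SLC7A11 were those lower on day 3. SLC7A11, the cystine carrier, had 9.83 FPKM on day 0 and 3.64, 4.52 and 4.63 later. Of the 8 regulators listed, NFE2L2 (NRF2 itself) had 46.7 and 51.0 FPKM and its repressor BACH1 44.3 and 65.3 on days 0 and 9. SQSTM1, an autophagy receptor that is both target and activator of NRF2, was 2-fold higher on day 9, with 231, 224, 385 and 496 FPKM. Their median was 0.06 on day 9.

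**Figure D5:**
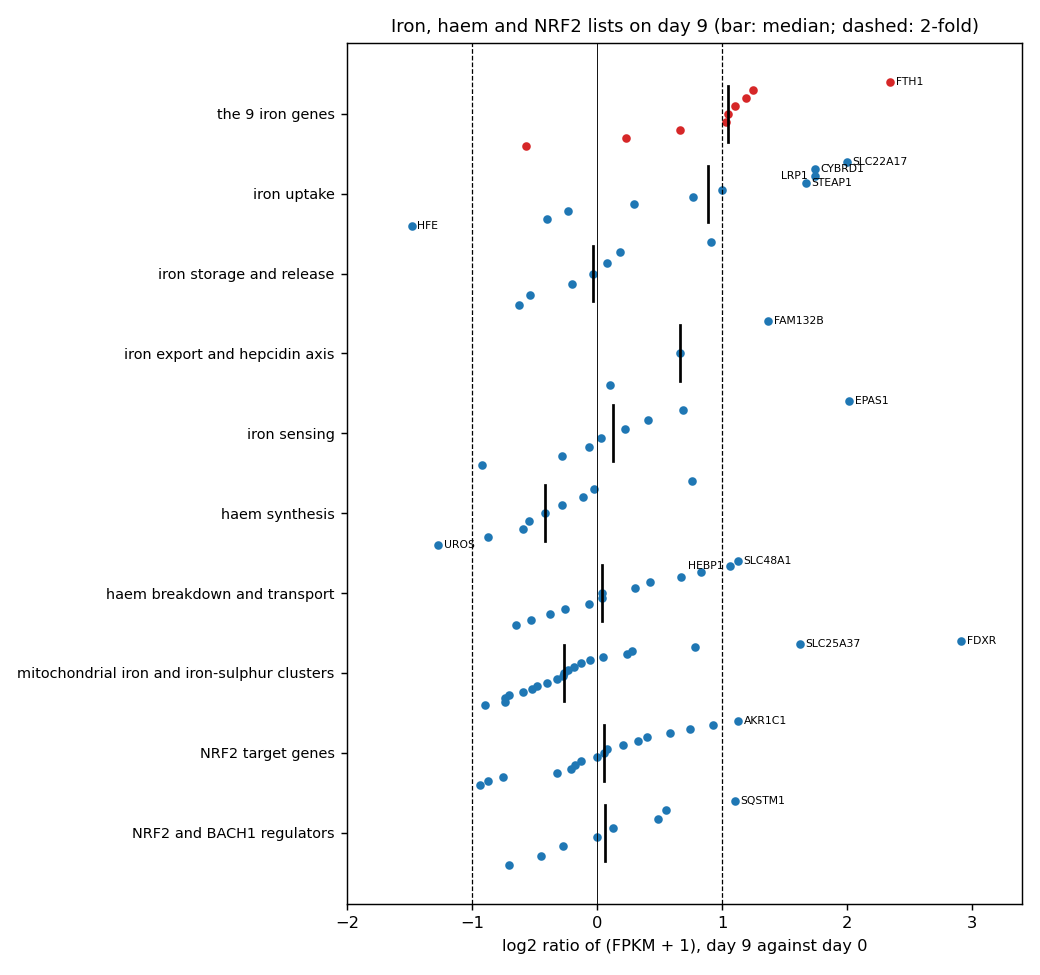
Log2 ratio of (FPKM + 1) on day 9 against day 0 (horizontal axis) of the 9 iron genes (red) and of 9 further lists (blue), 1 point per gene with at least 1 FPKM in any library; black bars are medians and dashed lines mark 2-fold. The median of the 9 genes is 1.05, that of haem synthesis is -0.42 and that of the NRF2 targets is 0.05.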

How the data were processed

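Total RNA of hFOB1.19 cells was depleted of ribosomal RNA and made into directional libraries, 1 per time point. Per the labels, RNase R, which digests linear RNA, was applied to the mRNA libraries and not to those of circRNAs. The methods name Bowtie and TopHat for alignment. The submitters' processing notes list Bowtie 0.12.2 and mm8, a mouse build, yet positions given in the files overlapped RefSeq GRCh38.p14 for 1166 of 1166 symbols. The authors deposited FPKM per transcript for mRNAs; the program and annotation are not given in the sources used here. Read depth per gene cannot be read from FPKM, so no counting interval is given. Low values showed steps of single fragments in part: the commonest day 0 to day 3 ratio was 0.785, in 4.26% of 4292 low transcripts. Against days 6 and 9, the commonest ratios were found in only 1.08% of 4367 and 0.617% of 4378.

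FPKM were summed per symbol, 1 was added and log2 ratios were taken, with a minimum of 1 FPKM in any library and a limit of 2-fold. The methods' DESeq2 needs counts and was not run. The members and gene lists were chosen with earlier results of these data known. Named are the 9 genes, list genes past the limit in 1 direction on all 3 days or with the largest ratio on day 9, and the 2 symbols nearest in course to each member past the limit. Other genes were named after their values were seen. One gene of haem synthesis is not reported here and was left out of its list. The 9 deposited comparison tables hold the authors' fold changes and p-values, which were not used, and of the mRNA ones only gene positions were read. The circRNA IDs pair with no gene, and none of the 4583 lncRNA transcripts carries a member's symbol. Alternatives were the pseudocount, the scaling, the minimum, the limit and the highest transcript alone. Python 3.11.15, numpy 2.4.6, pandas 2.3.3 and matplotlib 3.10.9 were used.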

Additional observations from a re-analysis of the deposited data

How the results depend on the processing

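No paired analysis was possible because each day has 1 library. The count of iron genes 2-fold higher was 2, 3 and 6 on days 3, 6 and 9 with 0.1 added in place of 1 and with FPKM rescaled to the same sum or the same median. Over all 12859 genes, 1046, 1158 and 1234 were higher on these days in the main setting. With 0.1 added they were 1537, 1624 and 1647. With the same sum they were 1636, 1694 and 1585, and with the same median 1161, 1268 and 1321. The share of all genes beside the unchanged member counts was thus larger in these settings. A minimum of 5 FPKM left 1, 2 and 5 on days 3, 6 and 9, since SLC40A1 is under it in every library. Of the 10452 genes that reached this minimum, 839, 927 and 962 were higher. With a limit of 4-fold, 0 remained on days 3 and 6 and 1 on day 9. With 1.5-fold, 3, 4 and 7 were higher on days 3, 6 and 9, and 1 was lower on day 3 and 1 on day 6. Of 108 ratios of single iron genes under 4 alternatives, 104 kept their sign and their side of the limit. The other 4 were under the limit and changed sign: with the same sum, ACO1 and HMOX1 had 0.09 and 0.11 on day 3, and with the highest transcript alone, SLC11A2 had -0.15 on day 3 and ACO1 -0.11 on day 6. With that transcript, the log2 change from day 0 to day 9 of IREB2 to ACO1 was -1.06 in place of -0.84 and that of HMOX1 to HMOX2 1.76 in place of 1.95.

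Over all genes, a limit of 1.5-fold gave 2234, 2309 and 2330 higher, and 2380, 2586 and 2629 lower, for days 3, 6 and 9. With 4-fold these were 214, 259 and 301 higher, and 99, 119 and 133 lower. With the same sum, 1636 were higher on day 3 and 46 lower between days 6 and 9. With 0.1 added, 180 were higher and 143 lower between days 3 and 6, and 116 and 107 between days 6 and 9. Other causes were not tested.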
